A study of Mus musculus with 18 samples.

Results

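The cells described here are the C1q-low myeloid cells of the mouse embryo at embryonic day 12.5 (E12.5). They were chosen by a low share of 4 transcripts, those of the complement subunits C1qa, C1qb and C1qc and of Csf1r, the receptor that tissue macrophages depend on. A cell was a member when these 4 genes together held less than 0.5% of its unique molecular identifiers (UMIs, each marking 1 captured transcript), and 86 of 1301 cells met this, 49 of 624 in yolk sac and 37 of 677 in brain. The other 1215 cells of the same libraries, at 0.5% or more, are called C1q-high. The study followed microglia, the macrophages of the brain, from the embryo to the adult by MARS-seq, which sorts single cells into plate wells and counts the 3' ends of their messenger RNA. Yolk sac and brain at E12.5 gave 4 libraries each, all from untreated CX3CR1-GFP+ C57BL/6J mice, a strain with a green fluorescent reporter for the fractalkine receptor Cx3cr1. Cells of both tissues were sorted as CD45+CD11B+CX3CR1-GFP+, a gate on the reporter and on both surface proteins. The well annotation gives 1 subject number for all 8 libraries, so the number of animals or litters behind them is unknown and p-values measure the spread between libraries, which may be technical.

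C1q is made of 3 chains, opens the classical complement pathway, and is produced in the brain mostly by microglia. Macrophages of the yolk sac arise from early blood precursors, enter the embryo with the circulation and seed the brain, where they become microglia. The same gate can also admit other myeloid cells that carry the reporter, among them dendritic cells, which present antigen on MHC class II molecules and depend on the receptor Flt3, and precursors of granulocytes and monocytes, which make granule enzymes such as myeloperoxidase.

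C1q-low cells made up 8.75%, 6.25%, 9.93% and 6.54% of the cells in yolk sac libraries 1 to 4, against 4.57%, 3.31%, 8.48% and 5.77% in brain libraries 1 to 4. The mean share was 7.87 ± 1.77% in yolk sac and 5.54 ± 2.21% in brain (SD, n = 4 libraries each). The ranges overlapped, and the difference of 2.33 percentage points had p = 0.143 in a two-sided exact permutation test, whose smallest possible p was 0.0286. The test counts the 2 libraries of each plate as separate. By the same rule 0 of 838 kept brain cells at E18.5 and 0 of 219 kept adult brain cells were members, which allows shares of up to 0.358% and 1.37%. These limits treat cells as independent and leave out the spread between libraries. Too few UMIs to be kept were found in 302 of 1140 wells with 1 sorted cell at E18.5 and 541 of 760 in the adult. The number was 83 of 760 for brain at E12.5. Whether the wells left out held members was not tested. The gate differed at those later ages, so age and gate cannot be told apart there. Cells lay on both sides of the rule without a clear gap. Of the members, 17 of 49 in yolk sac and 20 of 37 in brain lay at 0.25% to 0.5%. Just inside it, at 0.4% to 0.5%, lay 4 yolk sac and 5 brain cells, and just outside, at 0.5% to 0.6%, lay 7 yolk sac and 4 brain cells. The median share of the 4 transcripts was 0.176% in C1q-low and 1.56% in C1q-high yolk sac cells, and 0.260% in C1q-low and 2.13% in C1q-high brain cells, as the rule sets.

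**Figure D1:**
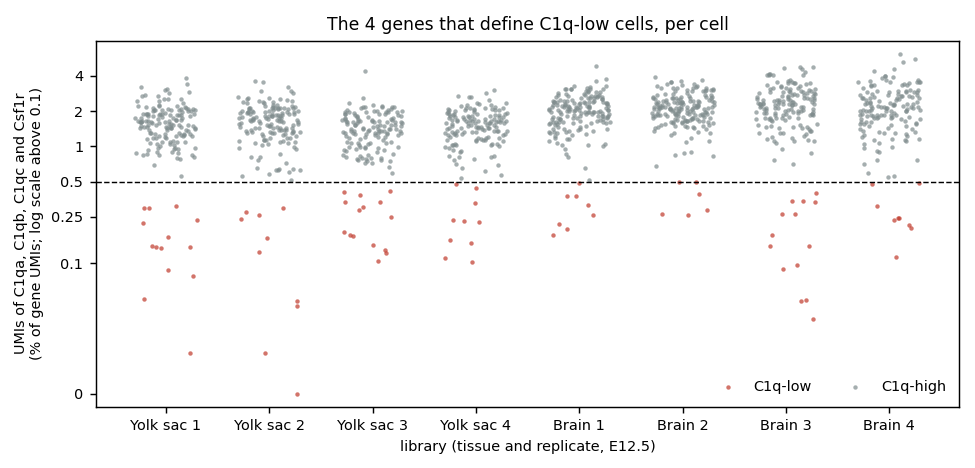
Share of UMIs held by C1qa, C1qb, C1qc and Csf1r in each E12.5 cell, by library, on an axis that is linear below 0.1% and logarithmic above it. The line marks the 0.5% rule; 49 yolk sac and 37 brain cells lie below it.

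The C1q-low cells were not shallow wells. Their median depth was 2298 UMIs in C1q-low and 1530 UMIs in C1q-high yolk sac cells, and 1939 UMIs in C1q-low and 1828.5 UMIs in C1q-high brain cells. The median was higher in C1q-low cells in 7 of 8 libraries, by 0.54 on the log2 scale on average (two-sided exact sign-flip permutation test over libraries, p = 0.0234, adjusted p = 0.0469 over 3 tests). After every cell was thinned to 600 UMIs, C1q-low cells held 11.1 more genes in the mean of library medians and more in 7 of 8 libraries (exact sign-flip permutation test, p = 0.0313, adjusted p = 0.0469). The 16 empty wells of these libraries held at most 80 UMIs. Among C1q-low cells yolk sac library 3 stood apart for lysozyme and Ifitm1, libraries 2 and 3 held hemoglobin-rich cells, and library 2 stood apart for Sparc, as given beside those genes. Libraries of a tissue lay on 2 plates, 1 and 2 on one and 3 and 4 on the other. Chi-square per degree of freedom over genes was 1.49 to 1.99 for libraries of 1 plate and 3.87 to 5.14 for libraries of different plates. Libraries of 1 plate were thus more alike, so p-values between tissues, which count every library as separate, may be too small. The plates of a tissue also differed in sequencing batch, so plate and batch cannot be told apart here. All 192 cell barcodes are used in all 8 libraries, which are told apart by their pool barcode. The summed cells of a class in a library held 29196 to 41964 UMIs in C1q-low and 227875 to 271815 UMIs in C1q-high yolk sac cells, and 18251 to 24525 UMIs in C1q-low and 201334 to 508395 UMIs in C1q-high brain cells. Levels below are CPM, counts per 1000000 UMIs of these sums, with the 4 chosen genes left out, and n is 4 libraries.

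Of the sort markers, Ptprc, which encodes CD45, had 59.7 to 137 CPM in C1q-low and 152 to 279.9 CPM in C1q-high yolk sac cells, and 0 to 391 CPM in C1q-low and 104 to 330.3 CPM in C1q-high brain cells. Itgam, which encodes CD11b, had 23.9 to 481 CPM in C1q-low and 111 to 396 CPM in C1q-high yolk sac cells. In brain Itgam had 40.9 to 869.9 CPM in C1q-low and 213 to 552 CPM in C1q-high cells, and neither gene passed the test in either tissue. Cx3cr1 itself had 0, 0, 179 and 0 CPM in C1q-low libraries 1 to 4 of yolk sac, against 40.1, 70.9, 101 and 157 CPM in C1q-high cells (log2 fold change -1.25, SE 0.65, edgeR adjusted p = 0.16). In brain it had 48.1, 0, 0 and 54.9 CPM in C1q-low and 191, 253, 144 and 107 CPM in C1q-high cells, where 2.00 UMIs in all were seen in the C1q-low class and the ratio of C1q-high to C1q-low was 8.41 with an exact 95% interval of 2.31 to 69.8 (edgeR adjusted p = 0.0032). The brain call is lost without brain library 2 (adjusted p = 0.1), and the yolk sac call is made without yolk sac library 3 (adjusted p = 0.0015).

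The cells had been described by 6 markers, Napsa, Flt3, Id2, Cd74, Nup210 and Emb, which were named with these data known, so their values are given without reading a test from them. Napsa, an aspartic protease, had 631, 286, 239 and 240.3 CPM in C1q-low libraries 1 to 4 of yolk sac, against 8.92, 22.2, 3.73 and 4.35 CPM in C1q-high cells. In brain Napsa had 1202, 739, 981 and 879 CPM in C1q-low and 34.8, 12.0, 29.8 and 30.4 CPM in C1q-high cells. Every C1q-low library lay above every C1q-high library of its tissue, with log2 fold changes of 4.88, SE 0.53 in yolk sac and 4.97, SE 0.41 in brain. Flt3, the receptor that drives dendritic cell development, had 54.9, 47.7, 29.9 and 103 CPM in C1q-low against 0, 0, 3.73 and 4.35 CPM in C1q-high yolk sac cells, a ratio of C1q-low to C1q-high of 26.9 with an exact 95% interval of 5.37 to 260.0. In brain it had 289, 304, 490.4 and 604 CPM in C1q-low and 17.4, 2.01, 9.93 and 5.07 CPM in C1q-high cells, so that the classes did not overlap in either tissue. Id2, a transcriptional inhibitor needed for several dendritic and lymphoid lineages, had 494, 95.4, 269 and 893 CPM in C1q-low and 80.3, 62.0, 59.7 and 39.1 CPM in C1q-high yolk sac cells. Its brain values were 1924, 2088, 2125 and 1538 CPM in C1q-low and 93.4, 40.2, 39.7 and 66.0 CPM in C1q-high cells, again without overlap. Cd74, the invariant chain that escorts MHC class II, had 82.3, 0, 1045 and 206 CPM in C1q-low and 71.3, 199, 56.0 and 226 CPM in C1q-high yolk sac cells, where the ranges overlapped and yolk sac library 3 stood highest. In brain Cd74 had 1443, 1435, 1103 and 659 CPM in C1q-low and 60.8, 24.1, 59.6 and 35.5 CPM in C1q-high cells and the classes were apart. Nup210, a nuclear pore protein, had 192 to 334 CPM in C1q-low and 13.4 to 44.8 CPM in C1q-high yolk sac cells. In brain Nup210 had 286 to 625 CPM in C1q-low and 59.6 to 91.3 CPM in C1q-high cells. Emb, the adhesion protein embigin, had 239 to 659 CPM in C1q-low and 131 to 217 CPM in C1q-high yolk sac cells. In brain Emb had 109.9 to 327 CPM in C1q-low and 20.3 to 72.3 CPM in C1q-high cells. All 6 markers were thus called higher in C1q-low brain cells and 5 of 6 in C1q-low yolk sac cells, Cd74 being the exception, beside 3.32% of all tested rows called higher in brain and 8.63% in yolk sac. Nothing is read from these counts, since the markers were chosen on these cells. The brain calls are lost for Cd74 without any 1 brain library or yolk sac library 1 or 4 and for Emb without brain library 3, and the yolk sac call of Emb without yolk sac library 1, 3 or 4. Napsa and Flt3 were apart from C1q-high cells in both tissues, and their C1q-low libraries were higher in brain than in yolk sac.

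**Figure D2:**
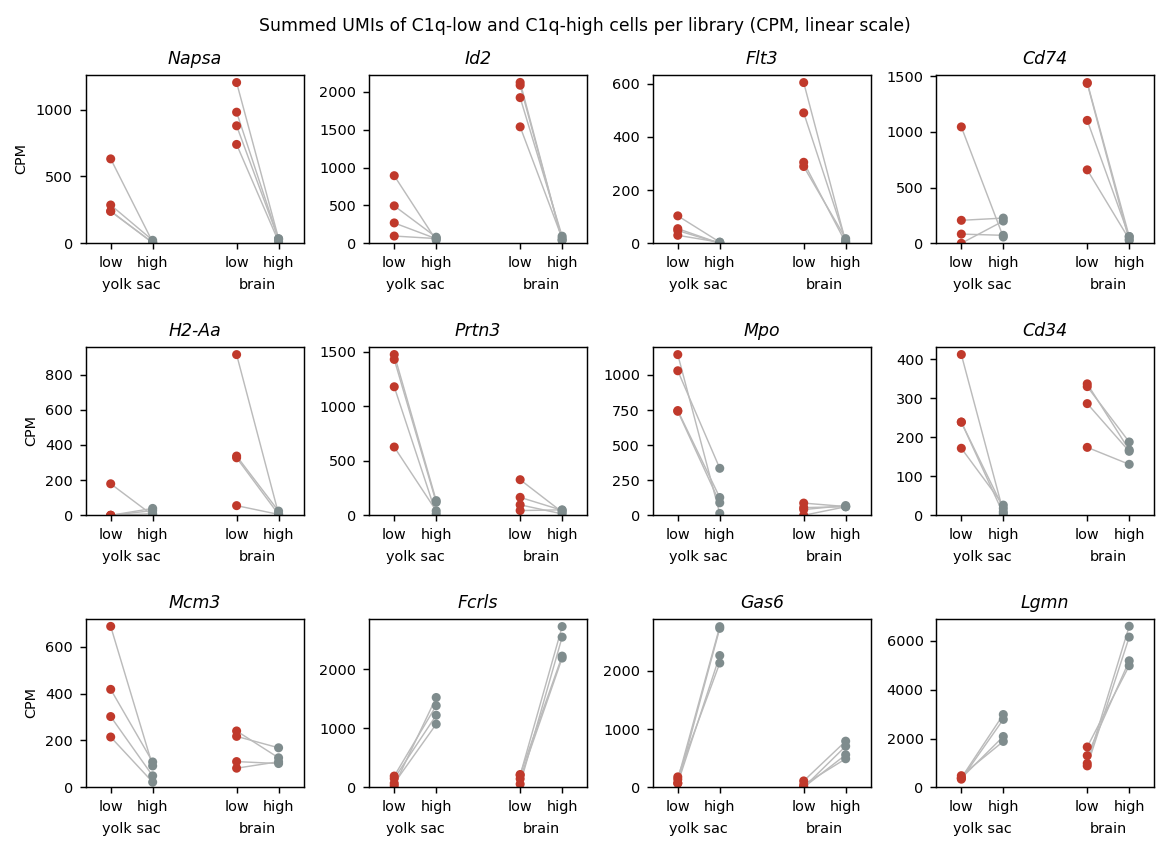
CPM of selected genes in each library, C1q-low to the left of C1q-high within each tissue, on linear axes that start at 0; grey lines join the classes of a library. Napsa, Flt3 and Id2 are apart in both tissues, Mpo is apart in yolk sac (741 to 1145 CPM in C1q-low libraries) and overlaps in brain, and Cd74 and H2-Aa are apart in brain.

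Over all genes, edgeR called 711 of 3315 tested gene rows between C1q-low and C1q-high yolk sac cells (21.4%), 286 higher (8.63%) and 425 lower (12.8%) in C1q-low cells. In brain it called 357 of 3315 rows (10.8%), 110 higher (3.32%) and 247 lower (7.45%). A row was called at a Benjamini-Hochberg adjusted p under 0.05, and the median log2 fold change of all tested rows was -0.07 in yolk sac and -0.21 in brain. With every cell thinned to 600 UMIs, and so with far fewer counts, 181 rows were called in yolk sac and 127 in brain, and 217 were called in brain without brain library 2. With the RLE scaling in place of TMM the brain median moved by over 0.1, to -0.10, and the brain calls were 154 higher and 215 lower. Because the classes were cut from the UMIs of the same cells, these calls describe how the classes differ. They are not independent of how the cells were chosen. Rows scarce in C1q-high cells could pass the filter on low counts only through the C1q-low libraries where they are high. Counts of listed genes called higher are therefore partly set by that filter. With no filter 48 rows were higher and 453 lower in brain, and 133 higher and 596 lower in yolk sac. In a bulk sum of cells, fewer cells of a type and less RNA per cell cannot be told apart.

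Of 25 listed dendritic cell and MHC class II genes 11 passed the filter on low counts, and 7 were higher in C1q-low brain cells, 0 lower and 4 not called, beside 3.32% of all tested rows higher. Napsa, Flt3 and Cd74 of these are among the 6 markers chosen on these cells. Of the other 8 tested genes 4 were higher in C1q-low brain cells, Batf3, H2-Aa, H2-Ab1 and Wdfy4, and 0 lower. The median log2 fold change of the 8 was 1.36. H2-Aa and Batf3 passed the filter through C1q-low libraries, where they were high, so the count is a description and not a test. H2-Aa, an MHC class II chain, had 337, 913, 327 and 54.9 CPM in C1q-low libraries 1 to 4 of brain, against 23.9, 8.03, 4.97 and 5.07 CPM in C1q-high cells (log2 fold change 4.97, SE 0.64, adjusted p = 8.2e-13). Each of the 4 C1q-low values lay above the 4 C1q-high values. Batf3, a transcription factor of cross-presenting dendritic cells, had 192, 130.5, 123 and 385 CPM in C1q-low and 23.9, 48.2, 34.8 and 30.4 CPM in C1q-high brain cells (log2 fold change 2.27, SE 0.63, adjusted p = 0.0055). Siglech, which plasmacytoid dendritic cells and microglia share, had 144, 217, 40.9 and 54.9 CPM in C1q-low and 256, 271, 99.3 and 142 CPM in C1q-high brain cells and did not pass (adjusted p = 0.29). In yolk sac only Flt3, H2-DMa and Napsa of the 11 were called higher and Naaa, read as a row joined with its alias, lower, with a median log2 fold change of 0.85. Without the 6 markers 1 of 8 was higher and 1 lower there, with a median of 0.08, beside 8.63% of all tested rows higher and 12.8% lower. H2-Aa was seen in 1 C1q-low yolk sac library, with 0, 0, 179 and 0 CPM in C1q-low against 8.92, 26.6, 0 and 39.1 CPM in C1q-high cells (adjusted p = 0.44). The effect on H2-Aa itself differed between the tissues, by -3.89 (log2, yolk sac effect minus brain effect, adjusted p = 0.013), a call lost without yolk sac library 2 or 4 or brain library 2.

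Beside these, the 10 largest rises in brain held Itgb7, the beta chain of a mucosal homing integrin, with 337, 174, 245 and 165 CPM in C1q-low and 4.35, 2.01, 9.93 and 0 CPM in C1q-high cells (log2 fold change 5.48, SE 0.87, adjusted p = 2.2e-08). Cd7, an immunoglobulin-family surface protein of lymphoid and some other progenitors, had 192, 43.5, 817 and 109.9 CPM in C1q-low and 6.52, 0, 19.9 and 0 CPM in C1q-high cells (log2 fold change 5.03, SE 0.84, adjusted p = 1.3e-07). No C1q-high brain library reached the lowest C1q-low library for either gene. The genes of this paragraph were picked for a large rise with the same direction in every brain library. All were scarce in C1q-high cells and passed the filter through C1q-low libraries. Their adjusted p-values are thus a description. Fgr, a Src-family kinase, had 240.5, 87.0, 123 and 219.7 CPM in C1q-low and 4.35, 8.03, 0 and 0 CPM in C1q-high cells (adjusted p = 1.7e-05). Plbd1, a phospholipase-like protein, had 481, 783, 163 and 165 CPM in C1q-low and 50.0, 14.1, 4.97 and 0 CPM in C1q-high cells (adjusted p = 3.8e-11). Ctnnd2, a catenin, had 192, 43.5, 204 and 219.7 CPM in C1q-low and 4.35, 0, 9.93 and 0 CPM in C1q-high brain cells (adjusted p = 2.5e-05). In yolk sac Ctnnd2 had 27.4, 0, 89.6 and 34.3 CPM in C1q-low cells and 0 UMIs in C1q-high cells. Set against 3 counts summed over the C1q-high group, which is the floor used here, it was at least 11.2-fold higher. Cd7 and Itgb7 were called in yolk sac too, on 1 UMI each in C1q-high cells, with a ratio of C1q-low to C1q-high of 53.8 with an exact 95% interval of 7.21 to 2387 for Cd7 and of 47.1 with an exact 95% interval of 6.05 to 2121 for Itgb7. The Itgb7 call in yolk sac is lost without yolk sac library 3 (adjusted p = 0.34).

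Of 24 listed granulocyte precursor genes 4 passed the filter, and 2 of them, Mpo and Prtn3, were higher in C1q-low yolk sac cells, beside 8.63% of all tested rows. Both needed C1q-low libraries, where they were high, to pass the filter. The count is therefore a description and not a test. Mpo, myeloperoxidase, had 741, 1145, 746 and 1030.0 CPM in C1q-low libraries 1 to 4 of yolk sac, against 89.2, 13.3, 127 and 335 CPM in C1q-high cells. Its log2 fold change was 2.82, SE 0.32, with an adjusted p of 9.6e-16. Prtn3, the granule protease proteinase 3, had 1180.3, 1431, 627 and 1476 CPM in C1q-low and 13.4, 119.7, 41.1 and 135 CPM in C1q-high yolk sac cells (log2 fold change 3.87, SE 0.32, adjusted p = 9.9e-31). For both genes all C1q-low values lay above all C1q-high values, and the highest C1q-high value was that of yolk sac library 4. In brain Mpo had 0, 87.0, 40.9 and 54.9 CPM in C1q-low and 60.8, 62.3, 69.5 and 60.9 CPM in C1q-high cells and was not called (adjusted p = 0.66). Prtn3 was called in brain at a lower level, with 96.2, 43.5, 327 and 165 CPM in C1q-low against 13.0, 50.2, 29.8 and 45.7 CPM in C1q-high cells (log2 fold change 1.91, SE 0.57, adjusted p = 0.011), a call lost without brain library 3 (log2 fold change 1.17, adjusted p = 0.41) and with thinned cells (adjusted p = 0.24). Elane, neutrophil elastase, and Csf3r, the receptor for granulocyte colony-stimulating factor, were not called in either tissue. Elane had a UMI in 12 of 49 C1q-low and 137 of 575 C1q-high yolk sac cells. Of the listed rows, 11 had no UMI in the C1q-low yolk sac cells.

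The 250 bases upstream of the start of both genes are shown because both were higher in C1q-low yolk sac cells and PU.1, a factor of myeloid precursors, is known to act on genes of this kind. They are from RefSeq on build GRCm38.p6, given 5′ to 3′ on the plus strand, and capitals mark GAGGAA, the core letters of PU.1 sites. GAGGAA on either strand occurs in 7639 of 32851 RefSeq windows of this length (23.3%), so a match is a description of the letters only.
Mpo (chr11:87793534-87793783): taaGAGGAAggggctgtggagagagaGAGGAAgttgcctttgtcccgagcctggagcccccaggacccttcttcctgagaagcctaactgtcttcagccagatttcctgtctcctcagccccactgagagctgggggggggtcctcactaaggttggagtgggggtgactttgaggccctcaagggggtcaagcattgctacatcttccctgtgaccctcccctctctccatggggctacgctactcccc
Prtn3 (chr10:79879417-79879666): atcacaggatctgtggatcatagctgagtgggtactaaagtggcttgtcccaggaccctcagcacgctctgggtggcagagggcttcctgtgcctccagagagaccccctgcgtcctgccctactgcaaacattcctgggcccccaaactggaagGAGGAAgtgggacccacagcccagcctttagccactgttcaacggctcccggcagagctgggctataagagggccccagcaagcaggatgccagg
The Mpo window holds the motif 2 times and the Prtn3 window 1 time.

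Among the other largest rises in yolk sac, Ptprcap, a partner of CD45, had 137, 95.4, 179 and 103 CPM in C1q-low and 8.92, 22.2, 0 and 0 CPM in C1q-high cells (adjusted p = 1.2e-05). These genes were also picked for the same direction in every library. Those scarce in C1q-high cells, such as Ptprcap, passed the filter through C1q-low libraries, so their adjusted p-values are a description. Nedd4, a ubiquitin ligase, had 54.9 to 239 CPM in C1q-low and 8.7 to 17.8 CPM in C1q-high cells. Parvg, an integrin adaptor of blood cells, had 167 to 358 CPM in C1q-low and 14.9 to 43.5 CPM in C1q-high cells (adjusted p = 1.2e-08, and 2.4e-06 for Nedd4). Histone genes of dividing cells were among them, Hist1h1a with 384, 310.2, 717 and 275 CPM in C1q-low against 71.3, 22.2, 52.3 and 34.8 CPM in C1q-high cells (adjusted p = 6.7e-12) and Hist1h2ak, whose call is lost without yolk sac library 2 (adjusted p = 0.051). Ifitm1, an interferon-induced membrane protein, had 384, 119, 2926 and 103 CPM in C1q-low and 22.3, 62.0, 22.4 and 13.0 CPM in C1q-high cells (adjusted p = 1.7e-08), most of it in library 3.

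Of 21 listed haematopoietic progenitor genes 7 were tested, and Cd34, Gpr56 and Lmo4 were higher in C1q-low yolk sac cells, with 0 lower. This stands beside 8.63% of all tested rows higher there. In brain 0 were higher and 1 was lower, beside 3.32% of all tested rows higher and 7.45% lower. Cd34, a surface protein of blood stem and progenitor cells and of vessels, had 412, 239, 239 and 172 CPM in C1q-low and 8.92, 17.7, 3.73 and 26.1 CPM in C1q-high yolk sac cells (log2 fold change 4.02, SE 0.52, adjusted p = 9.7e-13, and 0.36 with cells thinned to 600 UMIs). In brain it had 337, 174, 286 and 329.6 CPM in C1q-low and 167, 131, 164 and 188 CPM in C1q-high cells (adjusted p = 0.46). The C1q-low ranges of Cd34 overlapped between the tissues, and the C1q-high ranges did not. Gpr56, an adhesion receptor of stem cells, had 82.3, 95.4, 0 and 172 CPM in C1q-low and 4.46, 22.2, 11.2 and 13.0 CPM in C1q-high yolk sac cells (adjusted p = 0.0076, lost without yolk sac library 1 or 4). Lmo4, a transcriptional cofactor, had 165, 71.6, 836 and 446 CPM in C1q-low and 80.3, 57.6, 44.8 and 65.2 CPM in C1q-high cells (adjusted p = 1.7e-06, and 0.059 without yolk sac library 3). Runx1, a factor that blood stem cells need to form, had 0, 217, 245 and 109.9 CPM in C1q-low against 324, 327, 333 and 274 CPM in C1q-high brain cells and was the 1 member called lower in brain (adjusted p = 0.019), a call lost without brain library 1 or 4.

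Monocyte genes did not move together. Of 25 listed genes 5 were tested. In yolk sac Hp and S100a10 were higher, Ly86 lower and the joined row of Lyz1 and Lyz2 and Ms4a6c not called. Hp passed the filter through C1q-low libraries, so the count is a description. Of all tested rows 8.63% were higher and 12.8% lower in yolk sac, and 3.32% higher and 7.45% lower in brain. Hp, haptoglobin, had 274, 262, 597 and 240.3 CPM in C1q-low and 13.4, 22.2, 7.46 and 30.4 CPM in C1q-high yolk sac cells (log2 fold change 4.00, SE 0.55, adjusted p = 1.7e-11). The lysozyme row, whose 2 genes cannot be told apart, had 219.6, 71.6, 3911 and 584 CPM in C1q-low against 241, 310.2, 2325 and 1330.5 CPM in C1q-high yolk sac cells. Library 3 was far above the rest in C1q-low cells. In both classes libraries 3 and 4, of 1 plate and sequencing batch, lay above libraries 1 and 2. At least 2 thinned UMIs of the monocyte list were in 15.8%, 14.7%, 51.5% and 37.8% of C1q-high cells of yolk sac libraries 1 to 4. The brain values were 24.6%, 30.9%, 3.31% and 4.76%, also split by plate and batch. In brain S100a10, a calcium-binding family member of annexin complexes, had 673, 391, 286 and 439 CPM in C1q-low and 36.9, 30.1, 19.9 and 45.7 CPM in C1q-high cells (log2 fold change 3.54, SE 0.44, adjusted p = 6.6e-14), while Ly86, the lysozyme row and Ms4a6c were lower, Ms4a6c no longer so without brain library 2, 3 or 4. The S100a10 call in yolk sac is lost without yolk sac library 2, 3 or 4. Ly6c2 and Ccr2, which define classical monocytes, were not among the tested genes, and few cells held them. Ccr2 had a UMI in 3 of 49 C1q-low and 2 of 575 C1q-high yolk sac cells, and in 0 of 37 C1q-low and 2 of 640 C1q-high brain cells. Ly6c2 had a UMI in 1 of 49 C1q-low and 10 of 575 C1q-high yolk sac cells, and in 1 of 37 C1q-low and 4 of 640 C1q-high brain cells.

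The genes of mature macrophages were lower in C1q-low cells of both tissues. Of 17 tested macrophage core genes 14 were lower in yolk sac and 13 in brain, with 0 higher. The shares of all tested rows lower were 12.8% in yolk sac and 7.45% in brain. Median log2 fold changes of the list were -2.14 in yolk sac and -2.45 in brain. Apoe, which carries lipid out of cells, had 3404, 1670.0, 2836 and 2369 CPM in C1q-low against 26651, 26967, 22417 and 24749 CPM in C1q-high yolk sac cells (log2 fold change -3.49, SE 0.39, adjusted p = 0.0011). In brain it had 3608, 3088, 1103 and 1318 CPM in C1q-low and 17043, 16597, 21510.0 and 19616 CPM in C1q-high cells (log2 fold change -3.30, SE 0.41, adjusted p = 0.0039). The classes did not overlap, and Apoe had a UMI in 46 of 49 yolk sac and 34 of 37 brain C1q-low cells, background counts included. Lgmn, the lysosomal protease legumain, had 334 to 478 CPM in C1q-low and 1881 to 2983 CPM in C1q-high yolk sac cells. In brain Lgmn had 879 to 1653 CPM in C1q-low and 4983 to 6599 CPM in C1q-high cells (adjusted p = 1.1e-46 in yolk sac and 1.3e-45 in brain).

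Yolk sac and border macrophage genes were lower in C1q-low yolk sac cells in all 12 tested members of 17 listed (median log2 fold change -3.96). This stands beside 12.8% of all tested rows lower. Their summed level was 686 to 1791 CPM in C1q-low libraries against 11460 to 15717 CPM in C1q-high libraries. Gas6, a bridging ligand for the uptake of dead cells, had 137, 71.6, 179 and 68.7 CPM in C1q-low against 2756, 2260.2, 2131 and 2726 CPM in C1q-high yolk sac cells (log2 fold change -4.59, SE 0.28, adjusted p = 1.3e-56). The row that joins FELE-1 and Stab1, a scavenger receptor, had 54.9 to 269 CPM in C1q-low and 2593 to 3353 CPM in C1q-high cells (adjusted p = 8.7e-59). Clec10a, a lectin receptor, was seen with 1 UMI in C1q-low cells, a ratio of C1q-high to C1q-low of 58.9 with an exact 95% interval of 10.5 to 2332. Folr2, a folate receptor, had a ratio of 20.3 with an exact 95% interval of 6.89 to 98.7. Msr1, a scavenger receptor, and Cmklr1, a chemerin receptor, had 0 UMIs in C1q-low yolk sac cells, at least 5.01-fold and 4.81-fold lower against the 3-count floor. Of other complement genes, C2, C5ar1 and Cfb of 4 tested were lower in C1q-low yolk sac cells, beside the same 12.8%. C2 had 0, 0, 0 and 68.7 CPM in C1q-low against 129, 164, 321 and 496 CPM in C1q-high cells (ratio of C1q-high to C1q-low 19.8 with an exact 95% interval of 5.42 to 164, edgeR adjusted p = 4.6e-08). Further large falls in yolk sac were those of Sdc3, Fcna, Tmem8 and Ltc4s, with 1 to 3 UMIs each in C1q-low cells and ratios of C1q-high to C1q-low from 18.0 to 27.2. In brain, where the border list is low in C1q-high cells too (1705 to 1895 CPM), it summed to 0 to 385 CPM in C1q-low cells. Gas6 and the Stab1 row were the 2 of 12 tested called lower there, beside 7.45% of all tested rows.

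Homeostatic microglia genes were lower in C1q-low brain cells. Of 17 tested members 13 were called lower, 0 higher, with a median log2 fold change of -1.93 (12 lower and 1 higher with the RLE scaling). All tested rows were lower in 7.45% and higher in 3.32% in brain, and lower in 12.8% and higher in 8.63% in yolk sac. Fcrls, an Fc receptor-like microglial gene, had 144, 217, 204 and 54.9 CPM in C1q-low against 2188, 2221, 2721 and 2542 CPM in C1q-high brain cells (log2 fold change -4.11, SE 0.29, adjusted p = 1.1e-43). Trem2, a lipid-sensing receptor, had 240.5, 130.5, 123 and 165 CPM in C1q-low and 1636, 1572, 1857 and 2014 CPM in C1q-high cells (log2 fold change -3.64, SE 0.32, adjusted p = 1.1e-27). Tmem119, a microglial surface protein, had 289, 391, 163 and 109.9 CPM in C1q-low and 661, 695, 978 and 903 CPM in C1q-high cells (log2 fold change -1.93, SE 0.33, adjusted p = 4.4e-07). All 3 genes were apart between the classes. Of 37 C1q-low brain cells, Fcrls had a UMI in 11, Trem2 in 12 and Tmem119 in 10, background counts included. No C1q-low brain cell held over 2 UMIs of Fcrls or of Trem2. Of 640 C1q-high brain cells, Fcrls had a UMI in 577, Trem2 in 580 and Tmem119 in 428. Cst3, the protease inhibitor cystatin C, kept 10052 to 12362 CPM in C1q-low brain cells against 7077 to 9196 CPM in C1q-high cells (adjusted p = 0.19). In yolk sac 5 members were lower, Fcrls and Trem2 among them, and Selplg and Sparc were called higher, Sparc through yolk sac library 2 (27.4, 525, 59.7 and 34.3 CPM in C1q-low against 13.4, 13.3, 70.9 and 26.1 CPM in C1q-high cells, and a log2 fold change of -0.11 without that library).

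Brain falls outside these lists included Timp2, a metalloprotease inhibitor, and Plxdc2, a membrane receptor, both with 0 UMIs in C1q-low brain cells and at least 17.2-fold and 8.43-fold lower. Slco2b1, an organic anion transporter, was seen with 1 UMI, a ratio of C1q-high to C1q-low of 44.9 with an exact 95% interval of 8.04 to 1777. Slc11a1, the phagosomal metal transporter, had a ratio of 22.6 with an exact 95% interval of 6.23 to 187. Serpine2, a protease inhibitor, had 96.2, 87.0, 0 and 0 CPM in C1q-low against 715, 761, 953 and 1111 CPM in C1q-high cells (adjusted p = 5.7e-18). Phyhd1, an oxygenase-like protein, and Tbxas1, thromboxane synthase, had 1 UMI each in C1q-low brain cells, with ratios of 17.1 with an exact 95% interval of 3.05 to 679.6 for Phyhd1 and 10.8 with an exact 95% interval of 1.92 to 430.4 for Tbxas1, whose call is lost without brain library 3. Lysosomal genes were lower in both tissues. Of 23 tested lysosomal and cathepsin genes 17 were lower in yolk sac and 15 in brain, with 0 higher. This stands beside 12.8% of all tested rows lower in yolk sac and 7.45% in brain. Median log2 fold changes of the list were -1.36 in yolk sac and -1.51 in brain. Ctsl, the protease cathepsin L, had 47.7 to 309 CPM in C1q-low and 539 to 740.1 CPM in C1q-high yolk sac cells. In brain Ctsl had 0 to 174 CPM in C1q-low and 375 to 1111 CPM in C1q-high cells (adjusted p = 2.1e-10 in yolk sac and 8.2e-13 in brain), while Ctsh was not called in either tissue. The brain call of Grn is lost without yolk sac library 1 or 4 or brain library 1, 2 or 4. With the RLE scaling 18 were lower in yolk sac, and in brain 14 were lower and 1 was higher.

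**Figure D3:**
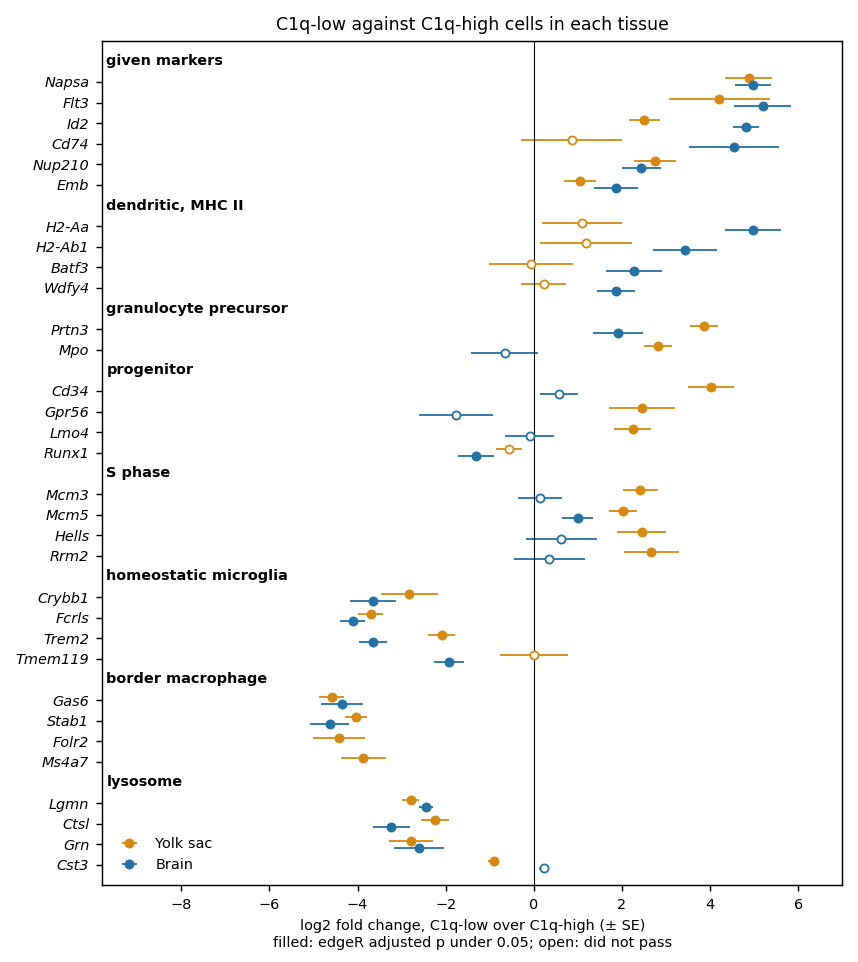
Log2 fold change, C1q-low over C1q-high, with its standard error for genes of 8 groups in yolk sac and brain, filled where edgeR's adjusted p was under 0.05. The 6 given markers lie above 0 and the border macrophage genes below it, Mpo and Cd34 stand higher in yolk sac and H2-Aa in brain; genes with 0 UMIs in a class, such as Folr2 and Ms4a7 in C1q-low brain cells, are not drawn there.

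Among 17 tested transcription factors, Id1, Id2 and Id3 were higher and Cebpa, Irf8 and Maf lower in C1q-low yolk sac cells. Id1 and Id3 were scarce in C1q-high cells, so the count of factors higher is partly set by the filter. The counts of this paragraph stand beside 8.63% of all tested rows higher and 12.8% lower in yolk sac. The brain shares were 3.32% higher and 7.45% lower. Id3, an inhibitor of E-protein factors like Id1 and Id2, had 274, 382, 0 and 206 CPM in C1q-low against 4.46, 22.2, 7.46 and 8.7 CPM in C1q-high yolk sac cells, the value of 0 being that of library 3 (log2 fold change 3.99, SE 0.69, adjusted p = 1.8e-07). Id1 had 274, 167, 0 and 103 CPM in C1q-low and 8.92, 13.3, 11.2 and 0 CPM in C1q-high cells (adjusted p = 0.0002). In brain 2 factors were higher, Batf3 and Id2, and 8 lower, among them Cebpa, Irf8, Maf and Runx1, Maf no longer so without brain library 1 or 3. Of 19 tested growth factor and cytokine receptors, Flt3 and Il17ra were higher and 8 lower in yolk sac. In brain Flt3 was higher and 4 were lower. The receptor counts higher were close to the shares of all tested rows. Il4ra, the interleukin-4 receptor chain, had 137 to 309 CPM in C1q-low against 926 to 1209 CPM in C1q-high yolk sac cells (log2 fold change -2.51, SE 0.29, adjusted p = 2.8e-16). Interferon-response genes were mostly lower in C1q-low yolk sac cells, with 8 of 13 tested lower, Ifitm1 higher, and a median of -1.60 (9 lower with the RLE scaling). Bst2, which tethers budding virus, had 310.2 to 478 CPM in C1q-low and 758 to 1787 CPM in C1q-high cells there (adjusted p = 2.2e-10). In brain 0 of 13 were lower, and Stat2, which carries interferon signals to the nucleus, was among those higher, with 337, 348, 40.9 and 329.6 CPM in C1q-low against 56.5, 48.2, 79.4 and 30.4 CPM in C1q-high cells (adjusted p = 0.00039).

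Replication genes were higher in C1q-low cells of yolk sac, where 15 of 15 tested S phase genes were called higher with a median log2 fold change of 1.93. Of all tested rows 8.63% were higher there. Of the 22 listed genes, those scarce in C1q-high cells, such as Rrm2, passed the filter through C1q-low libraries, so the count is partly set by it. Their summed level was 3841 to 6111 CPM in C1q-low against 1106 to 1381 CPM in C1q-high yolk sac cells. Mcm5, a subunit of the replicative helicase, had 522, 692, 418 and 412 CPM in C1q-low against 98.1, 79.8, 127 and 148 CPM in C1q-high cells (log2 fold change 2.02, SE 0.32, adjusted p = 1.3e-08). Rrm2, which makes deoxynucleotides, had 137, 95.4, 119 and 240.3 CPM in C1q-low and 8.92, 17.7, 26.1 and 26.1 CPM in C1q-high cells (log2 fold change 2.67, SE 0.63, adjusted p = 0.00034). In brain Mcm5 had 481, 391, 490.4 and 439 CPM in C1q-low and 189, 173, 209 and 213 CPM in C1q-high cells. It was called with Dut alone of the 15 (3 called with the RLE scaling), beside 3.32% of all tested rows higher. The median of the 15 was 0.62 in brain. The brain call of Mcm5 is lost without any 1 of the brain libraries or yolk sac library 2 and with thinned cells (adjusted p = 0.8). That of Dut is lost without any 1 of the brain libraries or yolk sac library 1, 2 or 4. Of 17 G2/M genes Top2a and Ube2c were called higher in yolk sac and Aurkb, Kif23 and Ube2c in brain (5 with the RLE scaling). The yolk sac count is close to the 8.63% of all tested rows higher there, and the list median was 0.37. In brain the list median was 0.93, beside 3.32% of all tested rows higher. The call of Ube2c in yolk sac is lost without yolk sac library 1, 2 or 3 and in brain without brain library 1 or 2. That of Aurkb is lost without brain library 1 or 3 and that of Kif23 without brain library 2 or 3. With each cell thinned to 600 UMIs, 30 of 49 C1q-low and 161 of 575 C1q-high yolk sac cells held at least 2 UMIs of either list, as did 27 of 37 C1q-low and 230 of 640 C1q-high brain cells.

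The effect of the class differed between the tissues for part of the genes. The difference between the yolk sac effect and the brain effect was called for 113 of 3315 rows (3.41%), 63 with the more positive effect in yolk sac (1.9%) and 50 with the more positive effect in brain (1.51%). The number of such rows was 51 to 93 when 1 library was left out. With the RLE scaling the split was 37 and 66, with DESeq2 it was 9 and 30, and the median difference moved by over 0.1, to 0.03 against 0.18 with TMM. Mpo had the more positive effect in yolk sac by 3.48 (adjusted p = 0.00041), Prtn3 by 1.95 (adjusted p = 0.043, lost without any 1 yolk sac library or brain library 2 or 4) and Cd34 by 3.45 (adjusted p = 8.1e-05). S100a10 had the more positive effect in brain, by -2.57 (adjusted p = 0.00035), as did Stat2 (-3.62, adjusted p = 8.1e-06). Id2, one of the 6 markers, differed by -2.31, given as a description. Marcksl1, an actin-binding protein, had 0 to 109.8 CPM in C1q-low and 101 to 173 CPM in C1q-high yolk sac cells. In brain Marcksl1 had 165 to 769.6 CPM in C1q-low and 66.0 to 115 CPM in C1q-high cells (difference -3.28, adjusted p = 0.00035).

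The rule for choosing cells did not use tissue, and C1q-low yolk sac cells were compared directly with C1q-low brain cells. Mpo and Prtn3 were higher in C1q-low yolk sac cells, and Cst3 and the actin regulator Gsn were higher in C1q-low brain cells. Id2 and Napsa were lower in C1q-low yolk sac cells too, but they are among the 6 markers named with these data known and are given as a description only. Of the 438 rows with enough counts, 29 were called (6.62%), 7 higher in yolk sac (1.6%) and 22 lower (5.02%). Mpo averaged 916 ± 204 CPM in C1q-low yolk sac and 45.7 ± 36.1 CPM in C1q-low brain cells (SD over 4 libraries each), and its log2 fold change was 4.13, SE 0.51 with an adjusted p of 4.2e-06. Prtn3 averaged 1179 ± 390.3 CPM in C1q-low yolk sac and 158 ± 123 CPM in C1q-low brain cells (log2 fold change 2.78, SE 0.43, adjusted p = 6.7e-05). The libraries of the tissues did not overlap for either gene, but genes were picked for this comparison only where they did not. The lack of overlap is thus set by the choice of genes and is not a result. Tagln2, an actin-binding transgelin, averaged 1308 ± 434 CPM in C1q-low yolk sac and 301 ± 158 CPM in C1q-low brain cells (adjusted p = 0.00078). Ftl1, the ferritin light chain, averaged 7907 ± 1508 CPM in C1q-low yolk sac and 3992 ± 1406 CPM in C1q-low brain cells (adjusted p = 0.015). In the other direction, Id2 averaged 438 ± 344 CPM in C1q-low yolk sac and 1919 ± 268 CPM in C1q-low brain cells (log2 fold change -2.25, SE 0.43). Cst3 averaged 3478 ± 738 CPM in C1q-low yolk sac and 11131 ± 950.0 CPM in C1q-low brain cells (log2 fold change -1.75, SE 0.19, adjusted p = 1.2e-06). Napsa had a log2 fold change of -1.50, SE 0.35. Gsn, gelsolin, averaged 192 ± 83.7 CPM in C1q-low yolk sac and 1112 ± 267 CPM in C1q-low brain cells (adjusted p = 2.1e-05). For Id2, Cst3 and Gsn no C1q-low yolk sac library reached the lowest C1q-low brain library, which the choice of genes also required. Tnni2, a troponin chain, had 137, 71.6, 59.7 and 275 CPM in C1q-low yolk sac and 1058, 1174, 1022 and 1154 CPM in C1q-low brain cells (adjusted p = 4.2e-06). Rgs2, a G-protein regulator, had 137 to 384 CPM in C1q-low yolk sac and 939.9 to 1305 CPM in C1q-low brain cells (adjusted p = 3.3e-05). Gng10, a G-protein subunit, had 89.6 to 247 CPM in C1q-low yolk sac and 613 to 1443 CPM in C1q-low brain cells (adjusted p = 2.1e-05). Csda and Dynlrb1 were higher in yolk sac at adjusted p = 0.045 and 0.048. The Csda call is lost without yolk sac library 1 or 4 or brain library 2, 3 or 4, and the Dynlrb1 call without yolk sac library 1, 2 or 3 or brain library 2, 3 or 4. Each plate held 1 tissue, so plate and tissue cannot be told apart. The p-values between tissues count the 2 libraries of a plate as separate and may be too small. With the 2 libraries of each tissue that shared a sequencing batch, 3 rows were called, and Mpo, Tnni2 and Cst3 were these 3 (log2 fold changes 4.26, -3.33 and -1.61). Prtn3 had an adjusted p of 0.054 there, in the same direction. Among C1q-high cells the tissues were apart in the same direction for Tnni2, with 44.6 to 69.6 CPM in C1q-high yolk sac and 173 to 244 CPM in C1q-high brain cells. The same held for Gng10, with 95.7 to 168 CPM in C1q-high yolk sac and 641 to 781 CPM in C1q-high brain cells, and for Rgs2, with 165 to 187 CPM in C1q-high yolk sac and 411 to 531 CPM in C1q-high brain cells. It also held for Cst3, with 5550.2 to 6125 CPM in C1q-high yolk sac and 7077 to 9196 CPM in C1q-high brain cells, and for Tagln2, with 374 to 407 CPM in C1q-high yolk sac and 178 to 259 CPM in C1q-high brain cells. The C1q-high ranges of the tissues overlapped for Mpo, Prtn3, Id2, Napsa, Gsn, Ftl1, Csda and Dynlrb1.

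**Figure D4:**
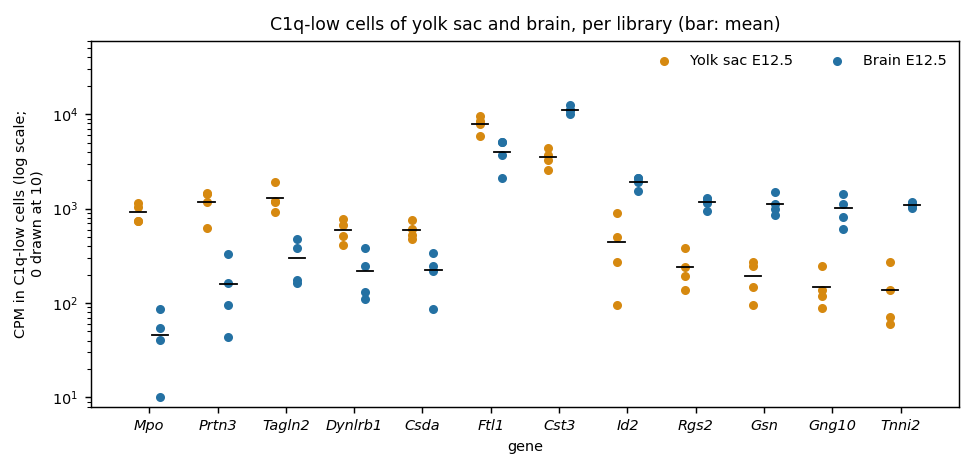
CPM of genes called between C1q-low yolk sac and C1q-low brain cells, yolk sac to the left, each point a library and bars the mean, on a log axis. All were picked for libraries that do not overlap between the tissues. Mpo averaged 916 ± 204 CPM in C1q-low yolk sac and 45.7 ± 36.1 CPM in C1q-low brain cells, and Id2 averaged 438 ± 344 CPM in C1q-low yolk sac and 1919 ± 268 CPM in C1q-low brain cells.

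The members differed among themselves. With each cell thinned to 600 UMIs, at least 2 UMIs of the granulocyte precursor list were found in 17 of 49 C1q-low yolk sac cells, against 46 of 575 C1q-high cells, 32 of which were in library 4 (34 of 49 C1q-low and 149 of 575 C1q-high unthinned). Every cell had at least 600 UMIs, so thinning left out 0 cells. By library the 17 cells split as 6, 5, 3 and 3, so each library held some. In brain 0 of 37 C1q-low cells held 2 such UMIs, which allows a share of up to 8.11%, against 16 of 640 C1q-high cells (11 of 37 C1q-low and 99 of 640 C1q-high unthinned). The dendritic cell and MHC class II list marked 21 of 37 C1q-low brain cells, split as 6, 3, 7 and 5 over the libraries, against 89 of 640 C1q-high cells, and 9 of 49 C1q-low against 23 of 575 C1q-high yolk sac cells. Unthinned, it marked 31 of 37 C1q-low and 329 of 640 C1q-high brain cells, and 26 of 49 C1q-low and 112 of 575 C1q-high yolk sac cells. The list holds Napsa, Flt3 and Cd74, which were chosen on these cells. Without them it marked 14 of 37 C1q-low and 80 of 640 C1q-high brain cells, and 3 of 49 C1q-low and 17 of 575 C1q-high yolk sac cells, thinned. In yolk sac 5 cells held both lists, 12 the granulocyte list alone, 4 the dendritic list alone and 28 neither. Of those 28 cells 15 held at least 2 thinned UMIs of the S phase list and 14 of the G2/M list. Of the 17 granulocyte-list cells 9 held 2 of the S phase list and 0 held 2 of the G2/M list, which allows a share of up to 17.6%, while 9 held at least 1 of the G2/M list. Of the 16 brain cells with neither list 10 held 2 of the S phase list. Border macrophage transcripts were found in 8 of 49 C1q-low against 540 of 575 C1q-high yolk sac cells (28 of 49 C1q-low and 566 of 575 C1q-high unthinned).

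**Figure D5:**
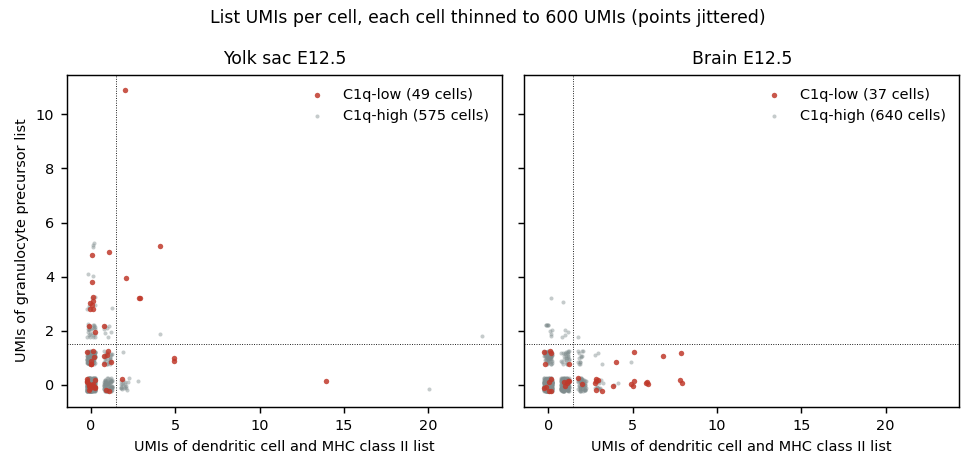
Thinned UMIs of the dendritic cell and MHC class II list against those of the granulocyte precursor list in each C1q-low (red) and C1q-high (grey) cell, yolk sac left and brain right, with points jittered and dotted lines at the limit of 2 UMIs. C1q-low brain cells lie along the dendritic axis, with 0 of 37 at 2 or more granulocyte UMIs; the dendritic list includes the given markers Napsa, Flt3 and Cd74. C1q-low yolk sac cells spread along both.

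The members also differed by their distance from the rule. The 6 given markers, which were named from these data, were found in 13 of the 32 yolk sac cells under 0.25% and in 1 of the 17 cells at 0.25% to 0.5%. In brain they were found in 12 of 17 and in 13 of 20 cells of the same bands. Border macrophage transcripts were in 2 of the 32 yolk sac members under 0.25% and in 6 of the 17 nearer the rule. Markers of other cell types rested on few cells. The erythroid list summed to 103 to 25218 CPM in C1q-low against 397 to 1910 CPM in C1q-high yolk sac cells, and 3 C1q-low cells, 1 of library 2 and 2 of library 3, held at least 10 thinned erythroid UMIs, up to 25.4% of a cell's UMIs. Without hemoglobin-rich cells 756 rows were called in yolk sac. The non-haematopoietic list summed to 137 to 2648 CPM in C1q-low against 192 to 253 CPM in C1q-high yolk sac cells, with 1 cell of library 3 at 10 or more. Pecam1, an endothelial and myeloid adhesion gene, was called higher in yolk sac with 0, 382, 119 and 34.3 CPM in C1q-low against 17.8, 4.43, 7.46 and 13.0 CPM in C1q-high cells, a call lost without library 2. In brain the erythroid list summed to at most 439 CPM in C1q-low cells and 9 of its 13 rows were at 0. Monocyte-list cells with at least 5 thinned UMIs numbered 5 in yolk sac, 4 in library 3 and 1 in library 4, and 0 in brain. Yolk sac libraries 3 and 4 shared a plate and sequencing batch and were the higher ones for the lysozyme row. Batch and cell content cannot be told apart there. Without hemoglobin-rich cells there were also 345 calls in brain, 119 for the difference between the tissues and 29 between C1q-low cells of the tissues. The part of the non-erythroid marker lists in the results above was not tested, beyond the values without each library.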

How the data were processed

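Sorted single cells of yolk sac and brain at E12.5 were profiled by MARS-seq. The authors deposited raw UMI counts per gene and well, whole numbers that were not normalized. Per the submitters' processing notes, bcl2fastq 2.15.0.4 and build mm9 were used; which aligner and which annotation were used is not given in the sources used here. Of 27297 gene rows 2109 join several symbols and cannot be given to 1 gene, and no gene exceeded 256 counts in any well, so the most abundant transcripts may be understated.

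Wells with 1 sorted cell and at least 600 gene UMIs were kept. Counts were summed per library and class, leaving out C1qa, C1qb, C1qc and Csf1r. Classes were compared with edgeR 4.0.16 (R 4.3.3, limma 3.58.1, quasi-likelihood F-test, robust, TMM, filterByExpr, Benjamini-Hochberg over all tested rows, threshold 0.05), with the library as a block in 1 fit of both tissues, because both classes come from the same library. C1q-low cells of yolk sac and brain were compared in a separate edgeR fit without a block, as replicate numbers are in accession order and pair nothing. Standard errors were taken from the fold change and its F statistic. Shares and per-library medians were compared by exact permutation tests (scipy 1.17.1). The floor was 3 counts summed over a group. Intervals (95%, exact), floors and upper limits on shares cover counting error only. The scripts were tested on simulated data. No doublet caller was run, since each well received 1 sorted cell.

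The members, markers, gene lists and tests were chosen with earlier results of these data known. Named genes were the 6 given markers, the sort genes, the 10 largest rises and falls per tissue, and up to 3 called members and 1 other per list. Rises and falls were taken among called single-symbol genes at a mean of at least 100 CPM and with 1 direction in every library. For the other contrasts the 6 largest in each direction were named, and only where the libraries of the tissues did not overlap. For the difference between tissues, the values that could not overlap were the log ratios of the classes in each library. Some genes that the rule names are not reported here. Other genes were named to identify counts after their values were seen. Alternatives covered the rule, depth, scaling, filter, DESeq2 1.42.0, block, plate and each library.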

Additional observations from a re-analysis of the deposited data

Results flagged for a closer look

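In 108 groups of 4 libraries of C1q-low cells, 8 held a library whose gap to the nearest other exceeded Dixon's 95% critical value, and chance flags about 1 in 20 groups. In yolk sac Hp was at 597 CPM in library 3 against 240.3 to 274 CPM in the others, and Napsa at 631 CPM in library 1 against 239 to 286 CPM. Ifitm1 was at 2926 CPM in library 3 against 103 to 384 CPM, and the lysozyme row of Lyz1 and Lyz2 at 3911 CPM against 71.6 to 584 CPM. Sparc was at 525 CPM in library 2 against 27.4 to 59.7 CPM. In brain Ahnak was at 304 CPM in library 2 against 40.9 to 54.9 CPM, and Ctnnd2 at 43.5 CPM in library 2 against 192 to 219.7 CPM. Stat2 was at 40.9 CPM in brain library 3 against 329.6 to 348 CPM.

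The effect of the class, C1q-low over C1q-high, differed between the tissues by edgeR's test of the difference for 33 named genes, of which 30 are reported here. As yolk sac effect minus brain effect on the log2 scale, the difference among granule, progenitor and monocyte genes was 3.48 for Mpo, 1.95 for Prtn3, 3.45 for Cd34, 4.22 for Gpr56, 2.34 for Lmo4 and 2.68 for the lysozyme row. It was 3.71 for Cd37, 3.63 for Ddx39, 4.25 for Ptpn11, 2.28 for Mcm3, 2.01 for Parvg and 1.96 for Csda. It was 3.04 for Sparc, 1.39 for Tagln2 and 0.49 for Ftl1. The opposite sign was seen for Id2, one of the 6 markers chosen on these cells, at -2.31, H2-Aa at -3.89, S100a10 at -2.57, Gsn at -2.86 and Cst3 at -1.15. Interferon and cytokine signalling genes were at -3.62 for Stat2, -1.60 for Bst2 and -1.71 for Il4ra. Cytoskeletal genes were at -3.47 for Ahnak, -3.28 for Marcksl1 and -3.25 for Iqgap1, and Tmem8 was at -4.72. The fitted values 8.86 for Ifitm1, 6.87 for Mtus1 and 6.68 for Timp2, with 0 UMIs in C1q-low brain cells, depend on the prior count and bound nothing. When each library was left out in turn, 9 of the 30 differences passed the test every time, those of Mpo, Cd34, Ddx39, Id2, S100a10, Gsn, Cst3, Stat2 and Marcksl1. The difference of Sparc is lost without yolk sac library 2, at 0.80, and without hemoglobin-rich cells, at 1.04. It is lost for Ahnak without brain library 2, for Il4ra without brain library 1, and for Iqgap1 without yolk sac library 3 or brain library 1. Bst2 loses it without yolk sac library 4 or brain library 3, and Mcm3 without yolk sac library 4 or brain library 2. Without yolk sac library 3 it is lost for the lysozyme row, which also loses it without brain library 1 or 2, and for Parvg, which also loses it without brain library 2 or 4. H2-Aa loses it without yolk sac library 2 or 4 or brain library 2, and Gpr56 without yolk sac library 1 or 4 or brain library 4. It is lost without yolk sac library 4 or brain library 1, 3 or 4 for Ptpn11, and for Cd37 without these or yolk sac library 3. Lmo4 loses it without yolk sac library 3 or 4 or brain library 1, 2 or 4, and Csda without yolk sac library 1, 2 or 4 or brain library 2 or 4. Tagln2 loses it without yolk sac library 1, 2 or 4 or brain library 2 or 3, and Tmem8 without yolk sac library 1, 2 or 4 or brain library 1 or 4. Prtn3 loses it without any 1 yolk sac library or brain library 2 or 4, and Ftl1 without any 1 yolk sac library or brain library 2, 3 or 4. It is lost for Ifitm1 without yolk sac library 1 or 3, for Mtus1 without yolk sac library 1, 3 or 4 and for Timp2 without yolk sac library 2, 3 or 4, and for each of them without any 1 brain library.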

How the results depend on the processing

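Of 152 named results, 122 passed the test, and 41 of these kept direction and side of the threshold under every setting run. With members below 0.25%, the calls were 73 in brain, 8 for the difference between tissues and 5 between C1q-low cells of the tissues. Brain then rests on 2 libraries, since library 1 holds 3 such cells and library 2 holds 0. With members below 1%, 68 rows differed between C1q-low cells of the tissues and the share differed by 12.1 points (exact permutation p = 0.0286), while with at least 1000 gene UMIs per cell it differed by 1.27 points (exact permutation p = 0.571). At 600 UMIs per cell there were 181 calls in yolk sac, 127 in brain, 0 for the difference (edgeR; 113 of 1302 rows at an unadjusted p under 0.05; no other tool was run at this depth) and 1 between tissues. DESeq2 called 193 in brain, 99 higher and 94 lower, and 39 for the difference, 9 more positive in yolk sac and 30 in brain. With no filter on low counts the difference gave 58 and the comparison of tissues 49. With no replicate block, the pairing of the classes by library, there were 39 for the difference, 632 in yolk sac and 285 in brain. Within a plate the calls were 362 and 334 in yolk sac and 148 and 114 in brain, and within the shared sequencing batch 3 between tissues and 16 for the difference, the last added after seeing the data. Leaving out 1 library gave 505 to 742 in yolk sac, 217 to 372 in brain, 51 to 93 for the difference (under 113 by over 1.5 times without yolk sac library 1, 2 or 4 or brain library 1, 2 or 4), 27 to 41 between tissues and a share difference of 1.59 to 3.32 points. Reversed log2 fold changes were 0.25 for the row of Lyz1 and Lyz2 in brain at 1%, -0.13 for Ube2c in brain at 0.25%, -0.87 and -0.32 for Sparc in yolk sac when thinned and in libraries 3 and 4 (-0.11 to 3.11 with 1 library left out, the lowest without library 2), -0.28 for Ube2c in yolk sac libraries 3 and 4, and 0.31 for the difference of Tmem8 at 0.25%. The causes were not tested. A minimum of 10 member cells per library gave 797 in yolk sac and was not run elsewhere. With 37 and 49 cells, genes under about 100 CPM rest on a few UMIs.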
